A study of Mus musculus with 14 samples.

Results

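Free SIINFEKL peptide was compared with saline in OT-I CD8+ T cells taken from the spleens of mice. The comparison used 5 of the 14 sequenced libraries, chosen by their labels: the 2 libraries of the SIINFEKL group and the 3 of the Naive group, whose mice had saline in place of antigen. OT-I cells (spleen, magnetic negative selection, CFSE dye) were injected intravenously on day 0 into CD45.2+ C57BL/6 recipients, labelled C57BL6j and 8 to 12 weeks old. On day 1 the SIINFEKL mice received 223 pmol of the free peptide in saline by vein, the molar amount in 10 µg of ovalbumin (OVA), and the Naive mice received saline alone. On day 4 spleen cells were freed of erythrocytes, enriched for CD8+ cells by negative selection and sorted as CD3e+ CD8+ CD45.1+, and stranded libraries were made from their poly(A) RNA. Everything but the injected agent was the same by the labels: the OT-I donor cells, the host strain, the times and the sorting. The other 9 libraries, 3 each from mice given free OVA, OVA targeted to erythrocytes (ERY1-OVA) or SIINFEKL targeted to erythrocytes (TER119-SIINFEKL), had the same transfer and serve here only to place the 5. The labels do not say whether a library is 1 mouse or a pool, or whether the 2 SIINFEKL libraries came from separate mice. Each p-value below therefore measures a spread between libraries, which may be technical, and that spread was pooled over all 14 libraries.

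OT-I T cells carry a transgenic receptor that recognises the ovalbumin peptide SIINFEKL on the MHC class I molecule H-2Kb. A peptide given without an adjuvant reaches many cells that lack costimulatory ligands, and T cells that meet antigen there typically divide for a time and are then deleted or become unresponsive (anergic). Anergic and chronically stimulated CD8+ T cells are known for inhibitory receptors on their surface, for transcription factors induced through NFAT, and for the folate receptor 4, neuropilin 1 and CD73 proteins, while effector cells are known for granzymes, perforin and cytokines.

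The files hold log2 values of RPKM (read density per kilobase of transcript, scaled to the reads mapped in the library), with no counts, so the depth of each library is unknown and no counting interval can be given. Of 10106 genes, 9793 had a mean of at least 1 RPKM over the 14 libraries and were tested. The sorted cells carried the transcripts of their label: the summed RPKM of 7 CD8 T cell markers was 3120.07 to 3609.2 in the Naive libraries and 3148.72 and 3251.64 in the SIINFEKL libraries. None of 5 neutrophil or 4 platelet markers had a value in the file, and Ms4a1 was not among the 3 of 8 B cell markers that did. The filter behind the gene list is unknown, so a missing marker is not shown to be absent. B cell markers summed to 10.99, 12.15 and 8.98 RPKM against 22.43 and 12.87. MHC class II and dendritic cell markers summed to 25.69, 13.47 and 28.89 against 12.23 and 14.06, and monocyte markers to 7.08, 3.5 and 6.19 against 6.65 and 5.9. The plasma cell marker Igj had 1.52, 3.05 and 17.17 against 0.43 and 9.5. The summed level of the 4 NK cell markers with values, mostly Gzma, was 104.83, 56.05 and 72.28 RPKM in the Naive libraries and 11.9 and 30.17 in the SIINFEKL libraries, with no value for Ncr1. Erythroid transcripts summed to 10.12 to 12.34 RPKM against 3.49 and 2.29.

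The 2 SIINFEKL libraries stood further apart than any other 2 libraries of 1 group. Of the 9793 genes, 661 (6.75%) differed at least 2-fold between them, 466 with replicate 1 higher (4.76%) and 195 with replicate 2 higher (1.99%), against 0.102% to 2.28% in the 12 pairs of the other groups. The pooled within-group SD was 0.416 on the log2 scale in the SIINFEKL group and 0.226 to 0.255 in the other 4 groups. The genes the results turn on are therefore given with the 2 SIINFEKL values apart. Values are in RPKM and in the order Naive replicates 1, 2 and 3, then SIINFEKL replicates 1 and 2. Differences are log2 (SIINFEKL minus Naive) ± standard error from limma, fitted across all 5 groups with Benjamini-Hochberg adjustment. That fit shares 1 spread per gene among the 5 groups, which is on average below the spread of the SIINFEKL pair. The standard errors and p-values below therefore understate the spread of that pair on average.

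In the comparison of SIINFEKL with Naive, 1559 genes (15.9% of those tested) passed an adjusted p of 0.05, 742 higher (7.58%) and 817 lower (8.34%) with SIINFEKL. Of these, 271 rose and 245 fell at least 2-fold. Both SIINFEKL values lay outside the Naive range for 1547 of the called genes (15.8% of tested), and for 4527 genes (46.2%) whether called or not. Among the called rises without overlap, replicate 1 was the higher library in 627 of 730, and among such falls it was the lower in 704 of 817. Set alone against the Naive libraries, in fits that lend the single library the spread of the other groups, replicate 1 gave 2438 calls (24.9%) and replicate 2 gave 363 (3.71%). Without Naive replicate 1, 2 or 3 the count was 1050, 935 or 932. With only the 5 libraries compared in the fit it was 605. Of the 32 gene lists described below, 29 had fewer calls without SIINFEKL replicate 1, and the larger moves of a count without 1 library are given beside the lists. A bulk library cannot tell a gene changed in all cells from one changed in some of them, nor fewer cells of a type from less RNA per cell.

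Inhibitory receptors (Lag3, Ctla4 and Pdcd1) and anergy surface markers (Nrn1 and Nrp1) held the 5 largest rises of the 12 leading ones, all above the Naive range in both libraries but to very different heights. Lag3 (MHC class II binding inhibitory receptor, chr6:124904361-124911705 in GRCm38) stood at 0.793, 0.492 and 0.653 RPKM in the Naive libraries and at 145 and 9.95 with SIINFEKL, a difference of 5.90 ± 0.70 (adjusted p = 0.00019). Pdcd1, which encodes PD-1 (chr1:94038305-94052553), stood at 0.294, 0.378 and 0.421 against 30.1 and 2.33 (4.54 ± 0.67, adjusted p = 0.00078). Both receptors were below 1 RPKM in every Naive library, above that range in both SIINFEKL libraries, and far higher in replicate 1. Ctla4, the receptor that competes with CD28 for its ligands (chr1:60887000-60915832), had 1.85, 1.36 and 4.38 against 89.9 and 38.7 (4.73 ± 0.48, adjusted p = 6.7e-05), and here replicate 2 also rose well clear of the Naive range. The erythrocyte-targeted peptide gave 58.9 to 78.2 RPKM of Lag3 and 53.9 to 72.5 of Ctla4, between the 2 SIINFEKL libraries for both genes. The log2 difference was 2.69 for Pdcd1 without SIINFEKL replicate 1, still past the threshold.

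**Figure D1:**
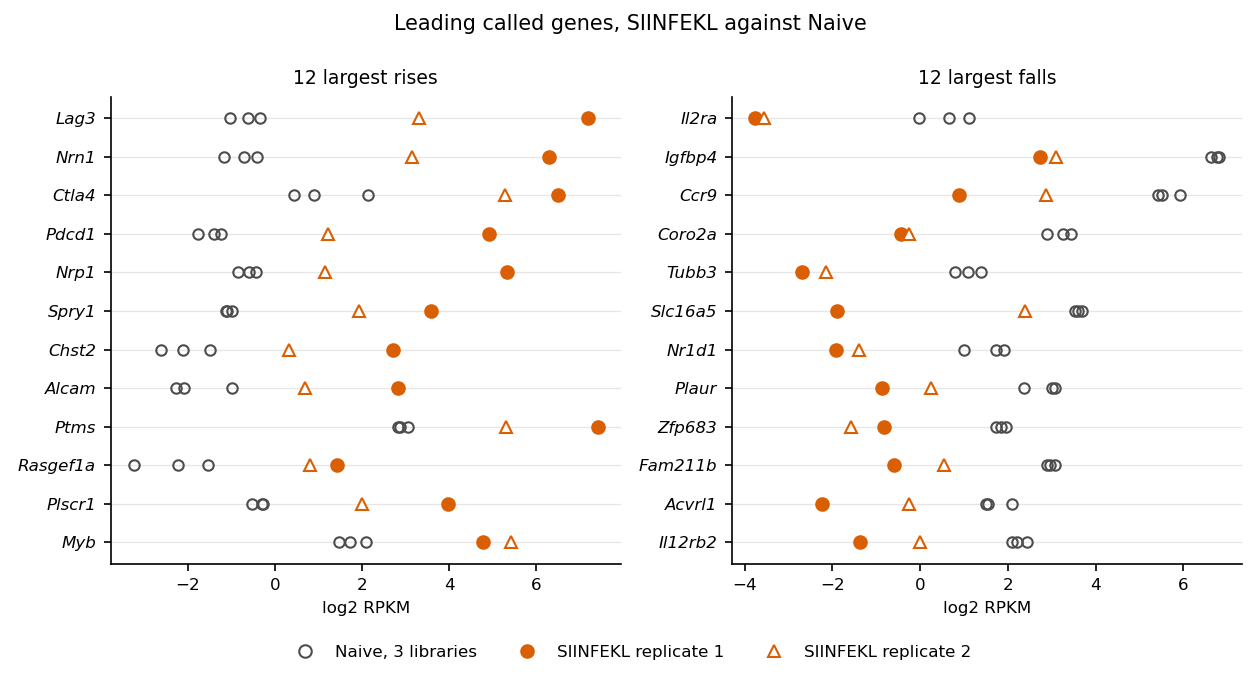
Level of the leading rises and falls in each Naive and SIINFEKL library, on a log axis in RPKM, with 1 point per library. Lag3 rises from below 1 RPKM in the 3 Naive libraries to 9.95 and 145 with SIINFEKL, and replicate 1 is the further from the Naive points for 11 of 12 rises and 11 of 12 falls.

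Of the 12 inhibitory receptors tested, 6 rose (50%, against 7.58% of all genes) and 2 fell (16.7%, against 8.34%). The median difference was 0.82 against -0.01 for all genes. The medians were 0.90 in replicate 1 and 0.60 in replicate 2. The list had 6 rises and 1 fall without Naive replicate 1, 5 rises and 1 fall without Naive replicate 2, and 4 rises and 1 fall without SIINFEKL replicate 1. Cd200, a ligand of an inhibitory myeloid receptor, had 3.06, 2.54 and 3.65 RPKM against 46.3 and 7.90 (2.65 ± 0.47, adjusted p = 0.0027). Btla, the receptor for HVEM, had 16.6, 16.6 and 13 against 44.2 and 24.6 (1.11 ± 0.25, adjusted p = 0.011). Cd5, a dampener of receptor signalling whose level follows signal strength, moved from 143, 126 and 122 to 164 and 183, a small difference (0.42 ± 0.11, adjusted p = 0.026) with no overlap. The 2 falls were Lair1, a collagen receptor (6.76, 6.39 and 4.12 against 2.30 and 1.81, -1.46 ± 0.28), and Klrg1, a marker of terminal effector cells (7.75, 5.46 and 3.34 against 0.406 and 1.39, -2.79 ± 0.76), with adjusted p of 0.0042 and 0.026. Tigit overlapped the Naive values (1.20, 0.925 and 3.33 against 2.78 and 3.52) and did not pass (adjusted p = 0.1). Cd200, Btla, Cd5 and Lair1 were chosen after their values were seen. Without SIINFEKL replicate 1, Btla (0.68) missed the threshold. A call was also lost for Cd5 (0.34 to 0.49) without Naive replicate 2 or 3 or SIINFEKL replicate 1 or 2 and Klrg1 (-1.91 to -2.76) without Naive replicate 1 or 2 or SIINFEKL replicate 1. Leaving out SIINFEKL replicate 1 gave 1.37 for Cd200, with the calls kept.

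Among the anergy surface markers, 3 of 5 rose (60%, against 7.58% of all genes) and 1 fell (20%, against 8.34%). Folr4, which encodes folate receptor 4 (now Izumo1r), had 10.1, 7.28 and 6.79 RPKM against 119.6 and 50.7 (3.29 ± 0.28, adjusted p = 2.4e-05), so that even the lower SIINFEKL library was several times above the highest Naive one. Nrn1, which encodes neuritin, a small GPI-anchored protein (chr13:36725361-36735131), went from 0.446, 0.610 and 0.749 to 77.9 and 8.81 (5.48 ± 0.66, adjusted p = 2e-04). Nrp1, the receptor neuropilin 1, went from 0.740, 0.660 and 0.552 to 39.8 and 2.22 (3.86 ± 0.78, adjusted p = 0.0062), and the level of replicate 1 was above all 12 other libraries of the series. Nt5e, the ectoenzyme CD73, split the pair: its values were 6.25, 6.51 and 9.69 against 20.6 and 5.25, above the Naive range in replicate 1 and below it in replicate 2 (adjusted p = 0.42). Ndrg1, a clonal anergy factor that costimulation holds down, fell from 23.2, 19.1 and 22.1 to 7.73 and 12.2 (-1.14 ± 0.19, adjusted p = 0.0017). Still past the threshold, the difference without SIINFEKL replicate 1 was 1.78 for Nrp1. Without SIINFEKL replicate 2 the difference was 5.94 for Nrp1, still past the threshold.

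Transcription factors induced through the T cell receptor showed 6 rises (46.2%, against 7.58% of all genes) and no fall among 13. Their median was 0.63 (0.81 in replicate 1 and 0.43 in replicate 2). Counts over this list were 3 rises without SIINFEKL replicate 1. Irf4, which scales with receptor signal strength, had 1.64, 1.53 and 1.82 RPKM against 8.76 and 4.91 (1.98 ± 0.29, adjusted p = 0.00078). Ikzf2, which encodes Helios, had 2.55, 2.10 and 2.41 against 16.4 and 6.00 (2.08 ± 0.31, adjusted p = 0.00092). Egr2, an inducer of anergy genes, had 3.09, 3.75 and 3.88 against 6.90 and 6.35 (0.90 ± 0.16, adjusted p = 0.0028). The 3 factors were higher in both SIINFEKL libraries than in any Naive library, and Egr2 reached nearly the same level in both. Tox, a driver of the exhausted state, moved from 14.4, 16.2 and 14.1 to 26.1 and 21.4 (0.67 ± 0.17, adjusted p = 0.021), whereas its level in TER119-SIINFEKL cells was 22.6 to 29.6. Nr4a1, an early receptor target, stayed within the Naive spread (20.1, 24 and 39.7 against 31.9 and 27.6, adjusted p = 0.85), and the members that did not pass also included Egr1, Egr3, Nr4a2 and Nr4a3. Of 12 listed genes of regulatory cells only 4 had values and 3 were tested. Of these 1 rose (33.3%, against 7.58% of all genes), which was again Ikzf2. The threshold was missed by Tox (0.52 to 0.65) without Naive replicate 1 or 3 or SIINFEKL replicate 1. The log2 difference was 1.36 for Ikzf2 without SIINFEKL replicate 1, still past the threshold.

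Downstream regulators of receptor signalling moved in both directions. Of 14 ubiquitin ligases, their adaptors and diacylglycerol kinases, 3 rose and 3 fell (21.4% each, against 7.58% and 8.34% of all genes). Over the same genes the counts were 0 rises and 2 falls without SIINFEKL replicate 1. Nedd4, a ubiquitin ligase, fell from 21.6, 22 and 26.8 RPKM to 3.80 and 7.78 (-2.10 ± 0.24, adjusted p = 0.00014), and Socs1, the brake on cytokine receptor signalling, from 14.4, 18.2 and 17.9 to 5.35 and 6.52 (-1.50 ± 0.25, adjusted p = 0.0019). Dgka, the kinase that removes diacylglycerol and is tied to anergy, rose from 224, 227 and 218 to 315 and 333 (0.54 ± 0.12, adjusted p = 0.011). The other rises of that list were Dgkz and Cblb, and the other fall was Peli1. The ERK feedback list of 12 had 1 rise and 1 fall (8.33% each), near the 7.58% and 8.34% of all genes. Spry1 went from 0.469, 0.456 and 0.509 to 12 and 3.79 (3.82 ± 0.47, adjusted p = 0.00025) while its relative Spry2 went from 2.34, 1.86 and 2.74 to 0.866 and 0.674 (-1.58 ± 0.46, adjusted p = 0.035). Sprouty proteins restrain ERK signalling, and the 2 relatives moved in opposite directions in both libraries. Of the 24 CD3, CD8 and proximal signalling genes, 1 rose and 1 fell (4.17% each, below the shares of all genes), with a median of 0.01. Ubash3b, a phosphatase that acts on ZAP-70, had 12.3, 11.5 and 11 against 28.9 and 18 (0.98 ± 0.18, adjusted p = 0.004). Cd3e, by contrast, held at 431, 407 and 405 against 413 and 412. With SIINFEKL replicate 1 left out, Dgka (0.58), Peli1 (-0.41) and Ubash3b (0.64) did not pass. No call was left for Dgkz (0.53 to 0.55) without Naive replicate 1 or 2 or SIINFEKL replicate 1, Cblb (0.58 to 0.66) without Naive replicate 3 or SIINFEKL replicate 1 and Spry2 (-1.40 to -1.76) without any 1 of the 5 libraries.

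Of 15 costimulatory receptors and ligands 7 rose (46.7%, against 7.58% of all genes) and 1 fell (6.67%, against 8.34%), with a median of 0.44. For this list the fits gave 7 rises and 2 falls without Naive replicate 2, and 9 rises and 2 falls without SIINFEKL replicate 2. Slamf6, a SLAM family receptor, stood at 33.4, 31.2 and 28.9 RPKM against 203 and 108 (2.25 ± 0.19, adjusted p = 2.4e-05). Icos, a relative of CD28, stood at 18.4, 18.9 and 19.4 against 56.3 and 35.8 (1.25 ± 0.16, adjusted p = 0.00026). Both genes were higher in each SIINFEKL library than in every Naive library, again with replicate 1 the higher. Cd28, the main costimulatory receptor, and Cd27, a TNF receptor family member, were chosen after their values were seen. Cd28 rose from 32.4, 35.5 and 34 to 80.4 and 57.1 (1.0 ± 0.17, adjusted p = 0.0017). Cd27 rose from 194, 178 and 207 to 363 and 324 (0.83 ± 0.11, adjusted p = 0.00041), with little distance between the 2 SIINFEKL libraries. Cd40lg, the ligand by which T cells license antigen-presenting cells, was the fall, from 9.76, 9.35 and 7.34 to 3.82 and 2.43 (-1.52 ± 0.20, adjusted p = 0.00039). Tnfsf11, which encodes RANKL, had 0.482, 0.315 and 0.387 against 7.37 and 0.920 (2.74 ± 0.57, adjusted p = 0.0069). Leaving out SIINFEKL replicate 1 gave 1.24 for Tnfsf11, with the calls kept. Still past the threshold, the difference without SIINFEKL replicate 2 was 4.24 for Tnfsf11.

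Surface markers of activation did not move as 1 block. Of 15, 2 rose (13.3%, against 7.58% of all genes) and 4 fell (26.7%, against 8.34%). In this list leave-one-out fits gave 0 rises and 1 fall without SIINFEKL replicate 1. Cd44, the hyaluronan receptor of antigen-experienced cells, had 17.4, 22.7 and 26.6 RPKM against 38.1 and 38.2 (0.80 ± 0.16, adjusted p = 0.006), at almost the same level in the 2 SIINFEKL libraries. The early activation antigen Cd69 overlapped the Naive values (66.6, 50.2 and 104 against 38.7 and 79.5, adjusted p = 0.78). Itgae, the CD103 integrin chain, fell from 55.4, 45.7 and 49.3 to 5.69 and 10.2 (-2.72 ± 0.34, adjusted p = 0.00026), and Slc7a5, a subunit of the large neutral amino acid transporter, from 16.4, 19.4 and 20.6 to 6.94 and 10.2 (-1.15 ± 0.22, adjusted p = 0.0045). The 4F2 heavy chain Slc3a2, its partner, fell from 44.9, 44.1 and 45.4 to 23.7 and 32.2 (-0.70 ± 0.15, adjusted p = 0.0071) and was chosen after its values were seen. With replicate 2 as the only SIINFEKL library, Cd44 (0.80), Slc7a5 (-0.87) and Slc3a2 (-0.48) did not pass.

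Interleukin and cytokine receptor chains counted 8 falls (40%, against 8.34% of all genes) and no rise among 20, with a median of -0.53. Taken singly, replicate 1 gave 11 falls and replicate 2 gave 7, with 0 rises in either, against 12.5% and 2.08% of all genes called lower. Il2ra, the high-affinity interleukin 2 receptor chain CD25 (chr2:11642807-11693193), had 0.987, 2.16 and 1.59 RPKM in the Naive libraries and 0.0739 and 0.0855 in the SIINFEKL libraries, which were the lowest 2 of all 14. Its difference of -4.24 ± 0.45 (adjusted p = 9.1e-05) depends on values near the floor of the table: it was -3.16 with 0.1 RPKM added to each value and -1.23 with 1 RPKM added. Il7r, the receptor chain for the survival cytokine interleukin 7, fell from 139, 164 and 161 to 44.6 and 43 (-1.82 ± 0.23, adjusted p = 0.00031), equally in both libraries. Il12rb2, a chain of the interleukin 12 receptor, fell from 4.30, 4.63 and 5.41 to 0.388 and 0.993 (-2.94 ± 0.36, adjusted p = 0.00025). The falls chosen after their values were seen included Ifngr2 (14.1, 13.7 and 13.1 against 1.60 and 4.13, -2.40 ± 0.39), Tgfbr3 (4.15, 5.45 and 4.05 against 0.331 and 1.53, -2.67 ± 0.44) and Il6ra (49.8, 49.8 and 49.4 against 24.7 and 27.2, -0.94 ± 0.13), which encode chains of the interferon gamma, TGF-beta and interleukin 6 receptors. Their adjusted p were 0.0015, 0.0017 and 0.00051. Cish, a feedback inhibitor of interleukin 2 receptor signalling, fell in the same manner, from 1.61, 2.18 and 2.55 to 0.442 and 0.411 (-2.28 ± 0.39, adjusted p = 0.0021). Without SIINFEKL replicate 1 the difference was -1.56 for Tgfbr3, still past the threshold.

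**Figure D2:**
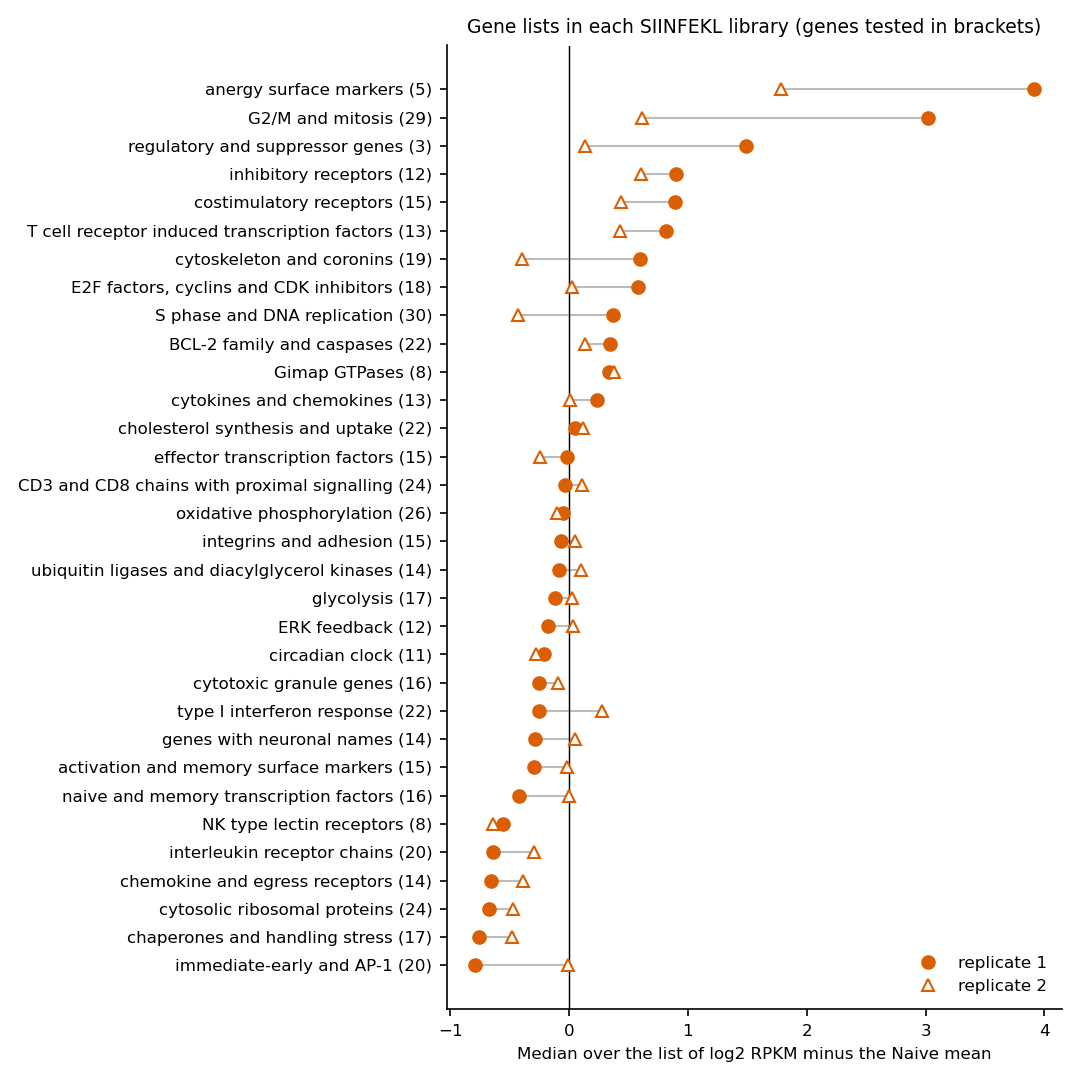
Median log2 difference from the Naive mean over the tested members of each gene list, with 1 point for each of the 2 SIINFEKL libraries. The G2/M list lies at 3.02 in replicate 1 and 0.62 in replicate 2, while the interleukin receptor and ribosomal lists lie below 0 in both.

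Effector genes moved in both directions. Among 16 cytotoxic granule genes, 3 rose (18.8%, against 7.58% of all genes) and 2 fell (12.5%, against 8.34%). Here the counts were 2 rises and 0 falls without Naive replicate 1 or 3, 2 rises and 1 fall without Naive replicate 2, 1 rise and 0 falls without SIINFEKL replicate 1, and 3 rises and 5 falls without SIINFEKL replicate 2. Gzmb, which encodes granzyme B, fell from 11.6, 6.81 and 9.24 RPKM to 1.71 and 4.46 (-1.70 ± 0.45, adjusted p = 0.022), in contrast with the 20.3 to 50.4 RPKM of the OVA libraries. Gzma, granzyme A, fell from 87.7, 42.7 and 55.5 to 6.48 and 23.4 (-2.27 ± 0.72, adjusted p = 0.047). Perforin, the pore protein encoded by Prf1, was below the Naive range in both libraries (35.5, 42.8 and 40.1 against 18.2 and 32.9) but missed the threshold (adjusted p = 0.051). Of the 3 rises, Serpinb6b, a serpin, went from 12.5, 13.9 and 13.9 to 55.4 and 32.3 (1.66 ± 0.20, adjusted p = 2e-04) and Stx11, a syntaxin needed for granule release, from 1.84, 1.65 and 1.86 to 4.42 and 3.21 (1.08 ± 0.20, adjusted p = 0.0036), and Unc13d, a priming factor of granule release, was the other. Of 8 NK-type lectin receptors 2 fell (25%, against 8.34% of all genes), Klrg1 and Klre1 (8.05, 5.32 and 7.52 against 1.23 and 2.44, -1.99 ± 0.61, adjusted p = 0.042). These lectin receptors gave 0 falls without Naive replicate 1 or 2 or SIINFEKL replicate 1, and 1 fall without Naive replicate 3. Gzma is itself an NK cell marker, and the summed NK markers were lower with SIINFEKL (given above). The part of NK cells in these falls was not tested. In the fit without SIINFEKL replicate 1, Stx11 (0.85) fell short of the threshold. Leave-one-out fits lost the call of Gzmb (-1.01 to -1.68) without Naive replicate 1 or 3 or SIINFEKL replicate 1, Gzma (-1.34 to -2.50), Unc13d (0.42 to 0.61) and Klre1 (-1.49 to -2.17) without Naive replicate 1, 2 or 3 or SIINFEKL replicate 1 and Klrg1 (-1.91 to -2.76) without Naive replicate 1 or 2 or SIINFEKL replicate 1.

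Cytokine transcripts showed 1 rise (7.69%, near the 7.58% of all genes) and 3 falls (23.1%, against 8.34%) among 13. Counts over this list were 0 rises and 1 fall without Naive replicate 1 or SIINFEKL replicate 1, 1 rise and 1 fall without Naive replicate 2 or 3, and 2 rises and 1 fall without SIINFEKL replicate 2. Ccl5, an abundant chemokine of memory CD8+ T cells, fell from 493, 440.3 and 851 RPKM to 41.4 and 159.7 (-2.81 ± 0.60, adjusted p = 0.0076). Fasl, the ligand of the death receptor Fas, fell from 1.61, 1.57 and 2.52 to 0.933 and 0.424 (-1.56 ± 0.47, adjusted p = 0.038), and Lta, lymphotoxin alpha, rose from 5.04, 5.45 and 6.31 to 8.38 and 7.68 (0.52 ± 0.13, adjusted p = 0.016). Ifng, which encodes interferon gamma, had 3.51, 2.09 and 10.1 against 10.8 and 4.60 (adjusted p = 0.6), within the Naive spread or just above it. Of 20 immediate-early genes, which respond within minutes to stimulation or handling, 2 fell (10%, near the 8.34% of all genes), Ier3 (4.68, 6.33 and 6.91 against 1.55 and 2.48, -1.59 ± 0.45) and Btg1 (205, 223 and 219.8 against 139 and 173, -0.48 ± 0.14), with adjusted p of 0.03 and 0.039. The immediate-early list had 1 fall without Naive replicate 1, and 0 falls without Naive replicate 2 or 3 or SIINFEKL replicate 1. Their list median was -0.79 in replicate 1 and -0.01 in replicate 2. When replicate 2 stood alone for SIINFEKL, Ccl5 (-1.83) did not pass. Calls not kept were those of Fasl (-0.99 to -1.68) without Naive replicate 1, 2 or 3 or SIINFEKL replicate 2, Lta (0.45 to 0.46) without Naive replicate 1 or SIINFEKL replicate 1 and Ier3 (-1.25 to -1.54) without Naive replicate 2 or 3 or SIINFEKL replicate 1. No longer called were Btg1 (-0.32 to -0.51) without Naive replicate 1, 2 or 3 or SIINFEKL replicate 1.

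Effector transcription factors did not rise by the test. Tbx21 (T-bet) stood at 13.4, 13.7 and 17.2 RPKM against 18.3 and 11.2 (adjusted p = 0.93), and Eomes at 20.0, 26 and 33 against 12.2 and 50.2 (adjusted p = 0.94), with the 2 SIINFEKL libraries on opposite sides of the Naive range for Eomes. Of 15 such factors 4 fell (26.7%, against 8.34% of all genes) and 0 rose. For this list the fits gave 1 rise and 1 fall without SIINFEKL replicate 1. Rora, a nuclear receptor, fell from 2.63, 2.34 and 1.95 to 1.01 and 0.936 (-1.23 ± 0.23, adjusted p = 0.0037), Zeb2, a factor of terminal effector cells, from 3.27, 2.55 and 2.28 to 0.420 and 1.14 (-1.95 ± 0.45, adjusted p = 0.011), and Myc, the growth regulator, from 73.5, 77.6 and 83.8 to 31 and 49.2 (-1.0 ± 0.23, adjusted p = 0.012). Id2, an inhibitor of E proteins associated with effector cells, was the other fall (52.9, 39.8 and 55.2 against 22.9 and 21.7, -1.13 ± 0.26, adjusted p = 0.013). Id3, the inhibitor associated with memory precursors, rose from 42.9, 42.4 and 39.5 to 151 and 83.5 (1.43 ± 0.28, adjusted p = 0.0045). Among 16 factors of naive and memory cells Id3 and Myb rose (12.5%, against 7.58% of all genes) and 3 fell (18.8%, against 8.34%). In this list leave-one-out fits gave 1 rise and 1 fall without SIINFEKL replicate 1. Myb, a regulator of self-renewal in memory CD8+ T cells (chr10:21124935-21160984), had 2.77, 3.30 and 4.22 against 27.5 and 42.5 (3.34 ± 0.24, adjusted p = 4.8e-06), and was the only 1 of the 12 leading rises in which replicate 2 was the higher library. Klf2, which maintains quiescence and S1pr1 expression, fell from 259, 306 and 345 to 141 and 162 (-0.99 ± 0.16, adjusted p = 0.0015). Tcf7, which encodes TCF1, lay within or above the Naive spread (677, 742 and 764 against 721 and 909.6, adjusted p = 0.56). Without SIINFEKL replicate 1, Zeb2 (-1.23), Myc (-0.67), Id2 (-1.17) and Id3 (1.01) missed the threshold.

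Of 14 chemokine and egress receptors, which guide homing, 6 fell (42.9%, against 8.34% of all genes) and 1 rose (7.14%, near the 7.58% of all genes). The median was -0.41 (-0.66 in replicate 1 and -0.39 in replicate 2). The number of called falls in this list dropped when single libraries were left out. It dropped over all tested genes too, from 817 to 558, 500 and 466 without Naive replicates 1, 2 and 3. Here the counts were 0 rises and 3 falls without Naive replicate 1 or 2, 2 rises and 1 fall without Naive replicate 3, and 1 rise and 1 fall without SIINFEKL replicate 1. Ccr9, the gut-homing receptor that marks recent thymic origin in CD8+ T cells, fell from 60.5, 43.2 and 46 RPKM to 1.86 and 7.29 (-3.74 ± 0.49, adjusted p = 0.00036). Cxcr4, the receptor for CXCL12, fell from 46.8, 58 and 72.1 to 9.76 and 28.4 (-1.80 ± 0.44, adjusted p = 0.015), and Ccr2, a receptor for inflammatory chemokines, from 2.79, 2.98 and 3.27 to 0.505 and 1.93 (-1.61 ± 0.42, adjusted p = 0.023). All 3 were lower in replicate 1 than in replicate 2. Ccr7, the lymph node homing receptor, was below the Naive range in both libraries (202, 183 and 202 against 157 and 135) without passing (adjusted p = 0.06). The rise was Cxcr3, the receptor for interferon-induced chemokines (19.6, 32.1 and 47.5 against 54.8 and 55.4, 0.83 ± 0.26, adjusted p = 0.046), chosen after its values were seen. Of 15 integrins and adhesion genes 3 rose (20%, against 7.58% of all genes) and 2 fell (13.3%, against 8.34%). The list had 1 rise and 1 fall without SIINFEKL replicate 1. Itgb1, the beta 1 integrin chain, rose from 43.6, 45.9 and 54 to 151 and 71.4 (1.13 ± 0.23, adjusted p = 0.0066), and Pecam1, an adhesion molecule that also marks endothelium, rose from 28.7, 32.9 and 27.7 to 65.7 and 48.2 (0.92 ± 0.15, adjusted p = 0.0018). Pecam1 was the only 1 of the 6 stroma and endothelium markers with values in the file. With SIINFEKL replicate 1 left out, Itgb1 (0.58) did not pass. A call was also lost for Cxcr4 (-1.03 to -1.65) without Naive replicate 3 or SIINFEKL replicate 1, Ccr2 (-0.64 to -1.61) without Naive replicate 2 or 3 or SIINFEKL replicate 1 and Cxcr3 (0.50 to 0.85) without Naive replicate 1 or 2 or SIINFEKL replicate 1 or 2.

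The cell cycle genes divided by phase and by library. Of 29 genes of G2/M and mitosis, 20 rose and none fell (median 1.94 against -0.01 for all genes), and replicate 1 stood far above replicate 2: the list median above the Naive mean was 3.02 in replicate 1 and 0.62 in replicate 2, and 29 members passed in replicate 1 alone (12.4% of all genes did) against 3 in replicate 2 alone (1.62%). Ccnb1, which encodes cyclin B1, had 1.28, 1.12 and 1.32 RPKM against 11.9 and 3.21 (2.32 ± 0.36, adjusted p = 0.0013). Prc1, a protein of the central spindle, had 0.862, 0.829 and 0.954 against 7.14 and 2.18 (2.16 ± 0.36, adjusted p = 0.0018), and Kif11, a spindle motor, had 1.01, 0.649 and 1.40 against 10.6 and 2.28 (2.34 ± 0.46, adjusted p = 0.0054). In these 3 genes replicate 2 was above every Naive library. Mki67, the proliferation antigen Ki-67, had 1.60, 1.48 and 2.35 against 21.2 and 2.89 (2.14 ± 0.62, adjusted p = 0.032), with replicate 2 just above the Naive values. The count of 20 (69%, against 7.58% of all genes) fell to 9 without Naive replicate 1, 8 without Naive replicate 2 and 2 when only the 5 libraries compared entered the fit. With replicate 2 as the only SIINFEKL library, Kif11 (1.23) did not pass. The threshold was missed by Mki67 (0.71 to 2.35) without Naive replicate 1, 2 or 3 or SIINFEKL replicate 1. The log2 difference was 1.37 for Ccnb1 and 1.31 for Prc1 without SIINFEKL replicate 1, still past the threshold.

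Of 30 S phase genes 2 rose (6.67%) and 3 fell (10%) with both SIINFEKL libraries in the fit, near the 7.58% and 8.34% of all genes. The 2 libraries moved in opposite directions, with a list median of 0.37 in replicate 1 and -0.43 in replicate 2. Replicate 1 was above the Naive range for 20 of the 30 and below it for 7. Replicate 2 was above it for 1 and below it for 21. Over all 9793 tested genes these counts were 3801 and 3808 for replicate 1, and 2867 and 3319 for replicate 2. Counts over this list were 1 rise and 2 falls without Naive replicate 1 or 3, 0 rises and 2 falls without Naive replicate 2, 0 rises and 5 falls without SIINFEKL replicate 1, and 9 rises and 3 falls without SIINFEKL replicate 2. Cdt1, which loads the replicative helicase, fell from 22.8, 24.7 and 25.5 RPKM to 10.2 and 11.6 (-1.16 ± 0.16, adjusted p = 0.00047). Ung, the uracil glycosylase of replicating cells, fell from 10.5, 10.5 and 11.2 to 3.45 and 5.07 (-1.36 ± 0.14, adjusted p = 8e-05). Ung was lower in each SIINFEKL library than in all 12 other libraries of the series, and Cdt1 was lower than in every Naive library. Tk1, thymidine kinase, rose from 1.70, 0.894 and 1.23 to 11.2 and 1.77 (1.85 ± 0.52, adjusted p = 0.028), almost wholly in replicate 1. Mcm5, a helicase subunit, had 17.5, 20.3 and 18 against 18.8 and 11.9 (adjusted p = 0.22) and Pcna, the sliding clamp, 103, 100.1 and 96.6 against 92.8 and 67 (adjusted p = 0.16). Among 18 E2F factors, cyclins and CDK inhibitors, 3 rose (16.7%) and 2 fell (11.1%), against 7.58% and 8.34% of all genes. E2f2, an activator of the cell cycle, went from 1.36, 2.01 and 2.49 to 24.3 and 6.26 (2.70 ± 0.44, adjusted p = 0.0016), the CDK inhibitor Cdkn2d from 56.7, 45.9 and 54.4 to 66.5 and 67.8 (0.37 ± 0.11, adjusted p = 0.036), and the G1 cyclin Ccnd3 from 102, 129.8 and 107 to 60.3 and 60.6 (-0.89 ± 0.13, adjusted p = 0.00095). Ccnd3 fell by the same amount in both libraries. Counts over the 18 genes were 2 rises and 1 fall without Naive replicate 1, 1 rise and 1 fall without Naive replicate 2 or SIINFEKL replicate 1, and 8 rises and 1 fall without SIINFEKL replicate 2. No call was left for Tk1 (0.52 to 1.85) without Naive replicate 2 or 3 or SIINFEKL replicate 1 and Cdkn2d (0.27 to 0.40) without Naive replicate 2 or 3 or SIINFEKL replicate 1 or 2. Leaving out SIINFEKL replicate 1 gave 1.72 for E2f2, with the calls kept.

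**Figure D3:**
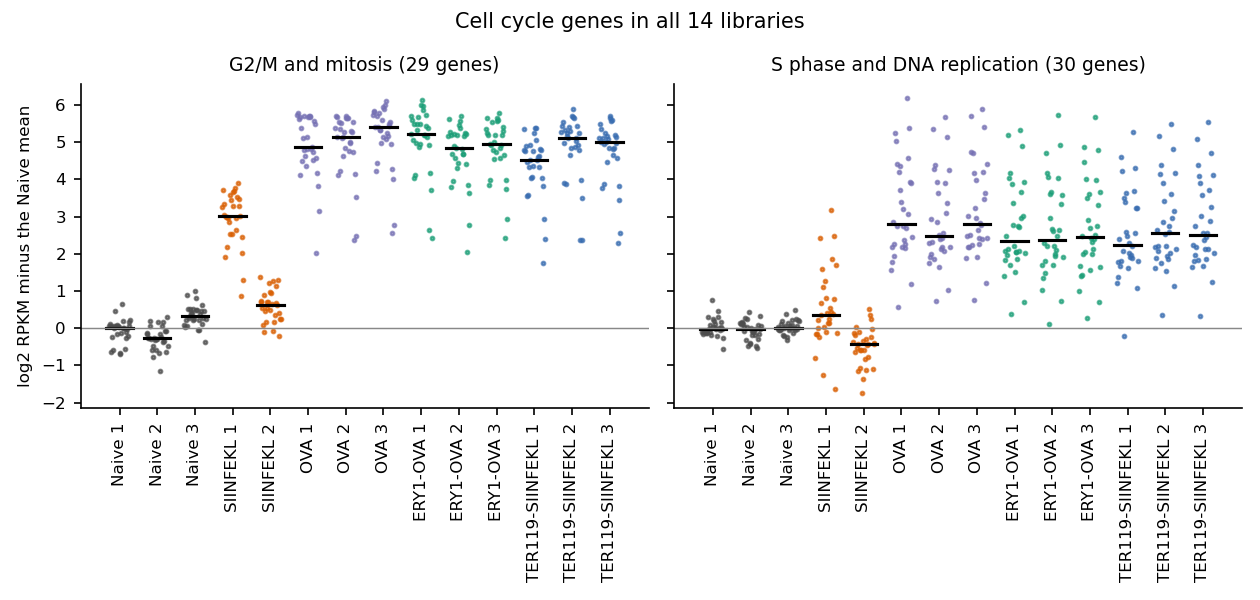
Median log2 difference from the Naive mean of the 29 G2/M genes and the 30 S phase genes in each of the 14 libraries. SIINFEKL replicates 1 and 2 lie at 3.02 and 0.62 for G2/M and at 0.37 and -0.43 for S phase, below the 9 libraries of the other antigen groups in both lists.

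In the 9 libraries of the other antigen groups the same G2/M median was 4.54 to 5.40 and the S phase median 2.25 to 2.81. All 29 G2/M and 30 S phase genes were below all 9 of those libraries in both SIINFEKL libraries. Every one of these genes was also called lower than in OVA and than in TER119-SIINFEKL cells, where the background shares called lower were 22.4% and 20.4%. Mki67, for example, stood at 43.5 to 71.5 RPKM in OVA cells and 29.2 to 74.8 in TER119-SIINFEKL cells.

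The promoters of the G2/M and S phase lists are described because the 2 lists moved apart. In the RefSeq windows from 250 bases before to 50 after the gene start (GRCm38.p6), both strands were searched for the cell cycle homology region CHR (TTTGAA or TTCGAA), the CCAAT box (CCAAT) and an E2F site (TTTNNCGC). Background knowledge places CHR and CCAAT boxes in promoters of late cell cycle genes and E2F sites in those of S phase genes. Of the 29 G2/M genes 25 had a window: 20 (80%) held a CHR, 20 (80%) a CCAAT box and 3 (12%) an E2F site. Of the 30 S phase genes 24 had a window: 5 (20.8%) held a CHR, 16 (66.7%) a CCAAT box and 10 (41.7%) an E2F site. Over all 27025 genes with a window the shares were 21.7%, 41.1% and 5.93%, and over the 7327 tested genes with a window 16.4%, 43.9% and 10.8%. A gene with several windows counted as holding a motif when any of them did. A match describes letters in a window and is not a bound site, and these shares were not tested.

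The 250 bases before the start are printed for Kif11 (chr19:37376132-37376381, plus strand), Prc1 (chr7:80294226-80294475, plus strand), Ccnb1 (chr13:100786487-100786736, minus strand) and Mcm5 (chr8:75109259-75109508, plus strand), with the matches to any of the 3 motifs in capitals. The first 3 are the genes named by rule among the G2/M rises, and Mcm5 was added after its matches were seen. Prc1 had 2 windows, and 1 of them is printed. Kif11 and Prc1 held a CHR and a CCAAT box, Ccnb1 held CCAAT boxes and no CHR in its window, and Mcm5 held a CCAAT box and an E2F site.
Kif11: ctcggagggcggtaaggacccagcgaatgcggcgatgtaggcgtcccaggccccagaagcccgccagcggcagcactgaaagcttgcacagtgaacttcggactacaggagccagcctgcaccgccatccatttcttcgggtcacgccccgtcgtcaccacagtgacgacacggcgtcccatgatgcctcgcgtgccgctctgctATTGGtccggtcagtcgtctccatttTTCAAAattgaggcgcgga
Prc1: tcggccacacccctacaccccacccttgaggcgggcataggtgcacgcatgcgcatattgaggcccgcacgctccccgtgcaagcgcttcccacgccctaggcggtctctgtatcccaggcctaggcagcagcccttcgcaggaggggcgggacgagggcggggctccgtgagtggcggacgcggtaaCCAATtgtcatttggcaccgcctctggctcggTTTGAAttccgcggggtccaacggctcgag
Ccnb1: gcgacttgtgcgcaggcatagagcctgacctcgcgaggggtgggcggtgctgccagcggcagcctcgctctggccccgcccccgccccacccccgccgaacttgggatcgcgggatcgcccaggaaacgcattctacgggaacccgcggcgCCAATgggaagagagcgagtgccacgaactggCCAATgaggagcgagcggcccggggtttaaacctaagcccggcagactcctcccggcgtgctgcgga
Mcm5: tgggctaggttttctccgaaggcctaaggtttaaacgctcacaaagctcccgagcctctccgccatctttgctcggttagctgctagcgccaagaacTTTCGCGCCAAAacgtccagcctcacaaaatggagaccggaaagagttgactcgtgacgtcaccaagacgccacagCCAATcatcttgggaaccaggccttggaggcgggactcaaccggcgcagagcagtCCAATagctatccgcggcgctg
Kif11, Prc1 and Ccnb1 were each far higher in replicate 1 than in replicate 2, and Mcm5 was among the 25 of 30 S phase genes that did not pass in either direction.

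Of 22 survival genes, BCL-2 family members and caspases, 7 rose (31.8%, against 7.58% of all genes) and 2 fell (9.09%, near the 8.34% of all genes). For this list the fits gave 3 rises and 1 fall without SIINFEKL replicate 1. Bcl2, the anti-apoptotic founder of the family, fell from 22.1, 30.5 and 32 RPKM to 7.17 and 12.1 (-1.58 ± 0.20, adjusted p = 0.00031). Casp4, an inflammatory caspase, rose from 0.370, 0.618 and 0.862 to 8.73 and 3.08 (3.15 ± 0.47, adjusted p = 0.00081). For both genes the 2 SIINFEKL values lay outside the Naive range. Members chosen after their values were seen included Bcl2a1b, an anti-apoptotic relative (11.7, 9.63 and 11 against 87.4 and 22.9, 2.06 ± 0.42), and Bbc3, which encodes the pro-apoptotic PUMA (20.2, 18.5 and 27.6 against 3.70 and 12.2, -1.70 ± 0.39), with adjusted p of 0.006 and 0.012. Bcl2a1b and its copy Bcl2a1d are near identical, so reads may have been divided between them. Bcl2l11, which encodes BIM, was above the Naive range in both libraries but did not pass (24.8, 31.9 and 30.1 against 71.1 and 32.5, adjusted p = 0.074). In the fit without SIINFEKL replicate 1, Bcl2a1b (1.09) and Bbc3 (-0.84) fell short of the threshold.

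The metabolic lists had medians near 0, at -0.05 for glycolysis, -0.06 for oxidative phosphorylation and 0.05 for cholesterol synthesis. Of 17 glycolysis genes 3 fell (17.6%, against 8.34% of all genes) and none rose. The falls were Eno1 from 298, 314 and 337 RPKM to 195 and 236 (-0.56 ± 0.12), Aldoa from 229.8, 259 and 264 to 172 and 199.7 (-0.43 ± 0.11) and Pfkl from 12.6, 16.5 and 15.1 to 8.64 and 10.6 (-0.61 ± 0.16), with adjusted p of 0.0091, 0.019 and 0.021. These encode an enolase, an aldolase and a phosphofructokinase. Under quantile normalization the list's median turned from -0.05 to 0.02, and Eno1 (-0.41) and Aldoa (-0.33) no longer passed. The glycolysis list had 1 fall without Naive replicate 3, and 0 falls without SIINFEKL replicate 1. Of 26 oxidative phosphorylation genes 1 fell (3.85%, against 8.34% of all genes) and none rose. The fall was Atp5b, a subunit of the ATP synthase (417, 400.1 and 417 against 284 and 353, -0.38 ± 0.12, adjusted p = 0.047). In the cholesterol list 4 of 22 rose (18.2%, against 7.58% of all genes) and 1 fell (4.55%, against 8.34%). Here the counts were 2 rises and 0 falls without Naive replicate 1, 1 rise and 0 falls without SIINFEKL replicate 1, and 4 rises and 2 falls without SIINFEKL replicate 2. Fdft1, which makes squalene, had 5.61, 5.78 and 4.84 against 8.15 and 7.92 (0.58 ± 0.13, adjusted p = 0.011), and Pmvk, a kinase of the mevalonate pathway, had 7.50, 8.63 and 9.43 against 13.4 and 10.6 (0.49 ± 0.14, adjusted p = 0.029). When replicate 2 stood alone for SIINFEKL, Eno1 (-0.42) and Fdft1 (0.55) did not pass. Leave-one-out fits lost the call of Aldoa (-0.33 to -0.41) and Pfkl (-0.46 to -0.59) without Naive replicate 2 or 3 or SIINFEKL replicate 1, Atp5b (-0.22 to -0.39) without Naive replicate 1, 2 or 3 or SIINFEKL replicate 1 and Pmvk (0.33 to 0.51) without Naive replicate 1 or 2 or SIINFEKL replicate 1.

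Of 17 genes of chaperones and handling stress 8 fell (47.1%, against 8.34% of all genes), with a list median of -0.62. The list had 4 falls without Naive replicate 2, and 1 fall without SIINFEKL replicate 1. With only the 5 libraries compared in the fit 3 fell, and with array weights 4. Hsp90ab1, a constitutive HSP90, fell from 1415, 1374 and 1348 RPKM to 706 and 830.0 (-0.85 ± 0.13, adjusted p = 0.0011), Hsp90aa1, its inducible relative, from 152, 214 and 146 to 67.9 and 107 (-0.98 ± 0.20, adjusted p = 0.0059) and the mitochondrial Hspd1 from 97, 119 and 91.1 to 44.8 and 69.8 (-0.86 ± 0.19, adjusted p = 0.0092). Naive replicate 2 was the highest of the 5 libraries for Hsp90aa1 and Hspd1, and the heat-shock genes Hspa1a and Hspa1b stood at 40.5 and 49 RPKM in that library against at most 1.07 in the other 4. The 3 genes named also passed without Naive replicate 2. Of 24 cytosolic ribosomal protein genes 5 fell (20.8%, against 8.34% of all genes). Called or not, 21 of the 24 were below the Naive range in both SIINFEKL libraries (24.8% of all genes were). Their median of -0.52 shrank to -0.07 under quantile normalization. The ribosomal list had 3 falls without Naive replicate 1, 2 falls without Naive replicate 3, and 1 fall without SIINFEKL replicate 1. Without OVA replicate 1 and TER119-SIINFEKL replicate 1 in the fit 12 fell. Rps2 had 398, 372 and 435 against 174 and 220.4 (-1.03 ± 0.17, adjusted p = 0.0015), and Rpl23 (2174, 2059 and 2410.3 against 1004 and 1542) and Rpl14 (1825, 1521 and 1737 against 890.1 and 905) fell with adjusted p of 0.016 and 0.016. Ribosomal protein genes have many processed copies, so reads may have been shared with them. Without SIINFEKL replicate 1, Hsp90aa1 (-0.66), Hspd1 (-0.54) and Rpl14 (-0.90) missed the threshold. Calls not kept were those of Rpl23 (-0.52 to -0.77) without Naive replicate 3 or SIINFEKL replicate 1.

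Interferon response genes showed 3 rises (13.6%, against 7.58% of all genes) and no fall among 22. Their medians had opposite signs in the 2 libraries (-0.26 in replicate 1 and 0.28 in replicate 2). Over the same genes the counts were 1 rise and 0 falls without Naive replicate 2 or SIINFEKL replicate 1, and 2 rises and 3 falls without SIINFEKL replicate 2. Stat2, a component of the interferon-activated complex, had 6.97, 8.00 and 6.95 RPKM against 14.1 and 13.3 (0.91 ± 0.15, adjusted p = 0.002), Mx1, an antiviral GTPase, 1.43, 0.995 and 1.83 against 4.26 and 4.31 (1.64 ± 0.48, adjusted p = 0.033), and Ifi27l2a 218, 131 and 132 against 592 and 314 (1.47 ± 0.39, adjusted p = 0.023). Core members such as Isg15 (25.7, 21.5 and 19.2 against 21.1 and 32.6) did not pass. Of 8 Gimap GTPases, which support lymphocyte survival, 4 rose (50%, against 7.58% of all genes) by small amounts, with like medians in the 2 libraries (0.34 and 0.38): Gimap7 from 77.6, 58.8 and 62.4 to 102 and 119.8 (0.75 ± 0.18, adjusted p = 0.015), Gimap8 from 59.7, 64.3 and 53.8 to 89.5 and 75.4 (0.48 ± 0.11) and Gimap3 from 312, 307 and 319.9 to 397 and 417 (0.38 ± 0.10) among them. The Gimap genes gave 1 rise without Naive replicate 2, 2 rises without Naive replicate 3 or SIINFEKL replicate 2, and 0 rises without SIINFEKL replicate 1. Among 11 clock genes 3 fell (27.3%, against 8.34% of all genes). In this list leave-one-out fits gave 1 fall without SIINFEKL replicate 1. Nr1d1, the repressor REV-ERB alpha, had 2.02, 3.34 and 3.75 against 0.267 and 0.379 (-3.21 ± 0.42, adjusted p = 0.00037), its relative Nr1d2 8.18, 7.13 and 10.4 against 2.01 and 5.04 (-1.41 ± 0.35, adjusted p = 0.016), and the clock repressor Cry1 12.8, 16.5 and 12 against 7.69 and 8.60 (-0.75 ± 0.16, adjusted p = 0.0072). With SIINFEKL replicate 1 left out, Gimap8 (0.35) and Cry1 (-0.67) did not pass. No longer called were Mx1 (1.40 to 1.67) without Naive replicate 1 or 2 or SIINFEKL replicate 1 or 2, Ifi27l2a (1.01 to 1.35) without Naive replicate 2 or 3 or SIINFEKL replicate 1 and Gimap7 (0.63 to 0.87) without Naive replicate 2 or SIINFEKL replicate 1 or 2. A call was also lost for Gimap3 (0.34 to 0.41) without any 1 of the 5 libraries and Nr1d2 (-0.75 to -1.26) without Naive replicate 3 or SIINFEKL replicate 1.

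Other genes changed to nearly the same level in both SIINFEKL libraries. Of the 1547 called genes without overlap, 932 (60.2%) had SIINFEKL values within 0.5 log2 of each other, 437 higher and 495 lower than Naive. Such closeness was the usual case, since 77.8% of all tested genes had it. The largest such rise was Cd22, an inhibitory sialic acid receptor best known from B cells (chr7:30865402-30880342), with 0.317, 0.435 and 0.369 RPKM against 3.87 and 3.57 (3.33 ± 0.16, adjusted p = 6.8e-08). It was higher still in OVA (6.41 to 6.97) and TER119-SIINFEKL (10.9 to 12.4) cells, while Cd79b, the B cell marker with the highest values, stood at 9.96, 9.58 and 8.12 in the Naive and 17.6 and 9.21 in the SIINFEKL libraries. The part of B cells in the Cd22 values was not tested. Cd86, a costimulatory ligand, went from 1.99, 1.46 and 1.81 to 9.95 and 10.3 (2.54 ± 0.25, adjusted p = 5.8e-05), Mapk11, a p38 kinase, from 3.53, 3.14 and 3.30 to 13 and 9.83 (1.77 ± 0.17, adjusted p = 5.8e-05), and Tspan32, a tetraspanin, from 21.6, 18.9 and 22 to 71.7 and 65.9 (1.73 ± 0.16, adjusted p = 5.1e-05). The other 6 rises of this kind by rule were Gm8369, Rundc3a, Snn, Plcl1, Zfp821 and Myl4, with differences of 1.72 to 3.15. Myl4 did not pass when only the 5 libraries compared entered the fit.

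The largest steady falls after Il2ra were Igfbp4, an insulin-like growth factor binding protein of resting T cells, from 112, 109 and 99.5 RPKM to 6.61 and 8.52 (-3.83 ± 0.41, adjusted p = 9.6e-05), and Coro2a, an actin-binding coronin (chr4:46536937-46602202), from 7.44, 10.8 and 9.61 to 0.735 and 0.837 (-3.55 ± 0.24, adjusted p = 4.1e-06). Cd7, a surface receptor of T and NK cells, fell from 250.4, 214 and 229.8 to 52.9 and 48 (-2.20 ± 0.30, adjusted p = 0.00051), and Ggt1, an enzyme of glutathione breakdown, from 38.9, 30.8 and 29.5 to 8.28 and 7.67 (-2.04 ± 0.20, adjusted p = 5.8e-05). Slc16a10, an aromatic amino acid transporter, went from 4.23, 4.66 and 3.74 to 0.971 and 0.823 (-2.23 ± 0.22, adjusted p = 5.8e-05). In each of these the SIINFEKL libraries lay close together and far below every Naive library. The remaining steady falls by rule were Trim30c, Cish, Gtf2ird1 and Cercam.

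Further leading rises were in genes of signalling and the cell surface. Chst2, a sulfotransferase, went from 0.164, 0.233 and 0.356 RPKM to 6.49 and 1.26 (3.58 ± 0.49, adjusted p = 0.00051), Alcam, the adhesion molecule CD166, from 0.507, 0.237 and 0.206 to 7.03 and 1.61 (3.53 ± 0.49, adjusted p = 0.00051), and Ptms, which encodes parathymosin, from 7.07, 7.29 and 8.30 to 169 and 39.6 (3.44 ± 0.39, adjusted p = 0.00014). Rasgef1a, an exchange factor for small GTPases, went from 0.214, 0.347 and 0.106 to 2.68 and 1.74 (3.44 ± 0.42) and Plscr1, a phospholipid scramblase, from 0.833, 0.816 and 0.696 to 15.7 and 4.01 (3.35 ± 0.40), with adjusted p of 0.00023 and 0.00019. The further leading falls were Plaur, the urokinase receptor (8.01, 5.18 and 8.46 against 0.547 and 1.19, -3.13 ± 0.46), Zfp683, which encodes HOBIT (3.61, 3.32 and 3.88 against 0.570 and 0.336, -3.04 ± 0.59), Fam211b (7.75, 8.37 and 7.45 against 0.664 and 1.45, -3.00 ± 0.38), Acvrl1, a TGF-beta family receptor (4.31, 2.91 and 2.84 against 0.212 and 0.842, -2.96 ± 0.60), and Slc16a5, a transporter of monocarboxylates (11.6, 12.8 and 12.1 against 0.269 and 5.24, -3.36 ± 0.78). Their adjusted p were 0.00082, 0.0045, 0.00028, 0.0063 and 0.012. Among the genes with neuronal names 4 of 14 rose and 4 fell (28.6% each, against 7.58% and 8.34% of all genes), with Nrn1 and Nrp1 on the one side and the tubulins Tubb3 (2.63, 2.14 and 1.75 against 0.155 and 0.227) and Tubb2a (8.54, 8.95 and 9.66 against 3.58 and 3.76) on the other. Slc16a5 also did not pass in the fit of the 5 libraries alone. With replicate 2 as the only SIINFEKL library, Acvrl1 (-1.97) did not pass. Still past the threshold, the difference without SIINFEKL replicate 1 was -1.22 for Slc16a5. Without SIINFEKL replicate 2 the difference was -5.50 for Slc16a5, still past the threshold.

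**Figure D4:**
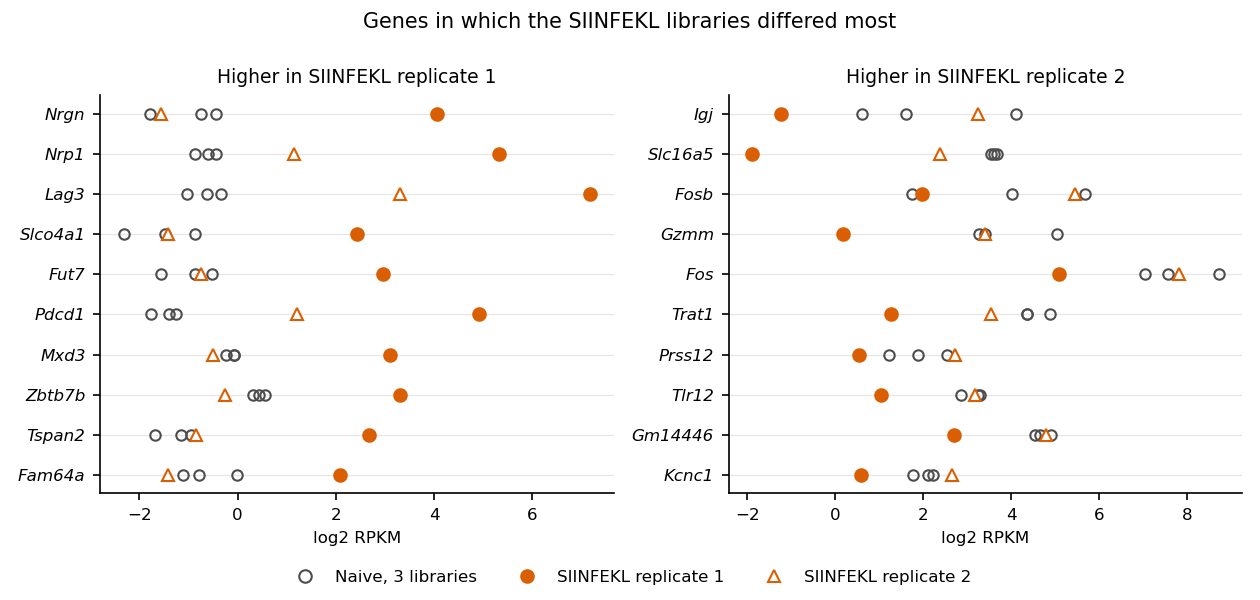
Levels in RPKM, on a log axis, of the genes that differ most between the 2 SIINFEKL libraries, with the Naive libraries beside them. For the 10 genes higher in replicate 1 that library is above every Naive value, and replicate 2 is within the Naive range or below it for 6 of them.

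The genes on which the SIINFEKL libraries differed most are given as a description, since they were chosen for that difference. All 10 of the genes with the largest excess in replicate 1 were above the Naive range there, and in replicate 2 there were 4 above it, 3 within it and 3 below it. They were Nrgn (neurogranin, a calmodulin binder, 0.741, 0.292 and 0.595 RPKM against 16.8 and 0.341), Nrp1, Lag3, Pdcd1, Slco4a1, Fut7, Mxd3, Tspan2, Fam64a and Zbtb7b. Fut7, the fucosyltransferase that makes selectin ligands, had 0.548, 0.698 and 0.339 against 7.74 and 0.594. Zbtb7b, which encodes the CD4 lineage factor ThPOK, had 1.36, 1.48 and 1.25 against 9.93 and 0.839, and no other library of the series exceeded 1.48 RPKM. Cd4 itself was at 0.379, 0.197 and 0.396 against 1.01 and 0.182 RPKM, and the part of CD4+ T cells in the Zbtb7b value was not tested. Of the 10 genes with the largest excess in replicate 2, replicate 1 was below the Naive range for 9. They were Igj (the antibody joining chain, 1.52, 3.05 and 17.2 against 0.425 and 9.50), Slc16a5, Fosb, Gzmm, Fos, Trat1, Prss12, Tlr12, Gm14446 and Kcnc1. Fos, the AP-1 subunit, had 188, 132 and 418 against 33.7 and 225, a wide range among the Naive libraries and a wider one, on the log2 scale, between the SIINFEKL libraries, and the same was true of Igj. Trat1, a T cell receptor associated adaptor, fell (29.5, 20.6 and 20.5 against 2.39 and 11.6, -2.14 ± 0.50, adjusted p = 0.012), as did Slc16a5, and Tspan2, a tetraspanin, rose (0.311, 0.447 and 0.518 against 6.37 and 0.559, 2.18 ± 0.68, adjusted p = 0.045). In the fit without SIINFEKL replicate 1, Trat1 (-1.0) fell short of the threshold. The threshold was missed by Tspan2 (0.42 to 2.34) without Naive replicate 1, 2 or 3 or SIINFEKL replicate 1.

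Set against whole OVA, which carries the same epitope, SIINFEKL cells differed in 4135 genes (42.2% of those tested), 1946 higher (19.9%) and 2189 lower (22.4%). Against TER119-SIINFEKL cells 3664 (37.4%) differed, 1668 higher (17%) and 1996 lower (20.4%). Which direction had more genes turned with the scaling in both comparisons: under quantile normalization 2388 were higher and 1882 lower than in OVA, and 2032 higher and 1752 lower than in TER119-SIINFEKL cells. These comparisons and the one with Naive share the SIINFEKL libraries, and the values for single genes are therefore given side by side. Egr2 was higher than in OVA cells (2.62 to 2.99 RPKM, 1.22 ± 0.16, adjusted p = 6.4e-05) and lower than in TER119-SIINFEKL cells (11.7 to 15.2 RPKM, -0.99 ± 0.16, adjusted p = 4e-04). Tigit was lower than in TER119-SIINFEKL cells (9.67 to 10.9 RPKM, -1.69 ± 0.41, adjusted p = 0.0057). Lag3, in contrast, did not pass against OVA (17.9 to 22.6 RPKM, 0.88 ± 0.70, adjusted p = 0.33) or from TER119-SIINFEKL (-0.82 ± 0.70, adjusted p = 0.38) and its 2 SIINFEKL values lay on either side of both ranges. Il7r was higher than in TER119-SIINFEKL cells (9.11 to 16.8 RPKM, 1.70 ± 0.23, adjusted p = 0.00014) and close to OVA cells (36.9 to 44.7 RPKM, 0.15 ± 0.23, adjusted p = 0.63). Myb was higher than in OVA cells (11.3 to 14.1 RPKM, 1.41 ± 0.24, adjusted p = 0.00045), and its excess over TER119-SIINFEKL cells was 0.62 ± 0.24 (adjusted p = 0.054).

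Some genes took levels with SIINFEKL outside those of all 12 other libraries and were called in all 3 comparisons: 135 above (1.38%) and 247 below (2.52%). Among those above were Cep97, a centriole protein (20.7, 19.9 and 18.8 RPKM against 38.8 and 31.3, with 12 to 13.7 in OVA and 13.7 to 16.3 in TER119-SIINFEKL cells; 0.82 ± 0.13 against Naive, adjusted p = 0.0011), Sntb1, a syntrophin (9.81, 14 and 9.59 against 24.5 and 21.1, 1.05 ± 0.16, adjusted p = 0.001), Tcn2, transcobalamin 2 (6.54, 6.76 and 7.24 against 10.3 and 13.1, 0.76 ± 0.14), Pitpnm1, a phosphatidylinositol transfer protein (31.1, 31.7 and 36 against 54.4 and 52.7, 0.70 ± 0.17), Rundc3a, Fam214b, Zfp831 and Tbx6. Both SIINFEKL libraries lay above the others, and close together. Those furthest below were Il2ra, Kcnk5, a potassium channel (1.56, 1.14 and 1.97 against 0.435 and 0.466, -1.75 ± 0.28, adjusted p = 0.0013), Coro2a, Ung and 4 tubulins. Kcnk5 did not pass when only the 5 libraries compared entered the fit. When replicate 2 stood alone for SIINFEKL, Pitpnm1 (0.68) did not pass. No call was left for Fam214b (0.69 to 0.94) without Naive replicate 1 or 2 or SIINFEKL replicate 1, Zfp831 (0.51 to 0.52) without Naive replicate 1 or SIINFEKL replicate 1 and Tbx6 (1.33 to 1.42) without Naive replicate 2 or SIINFEKL replicate 1.

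**Figure D5:**
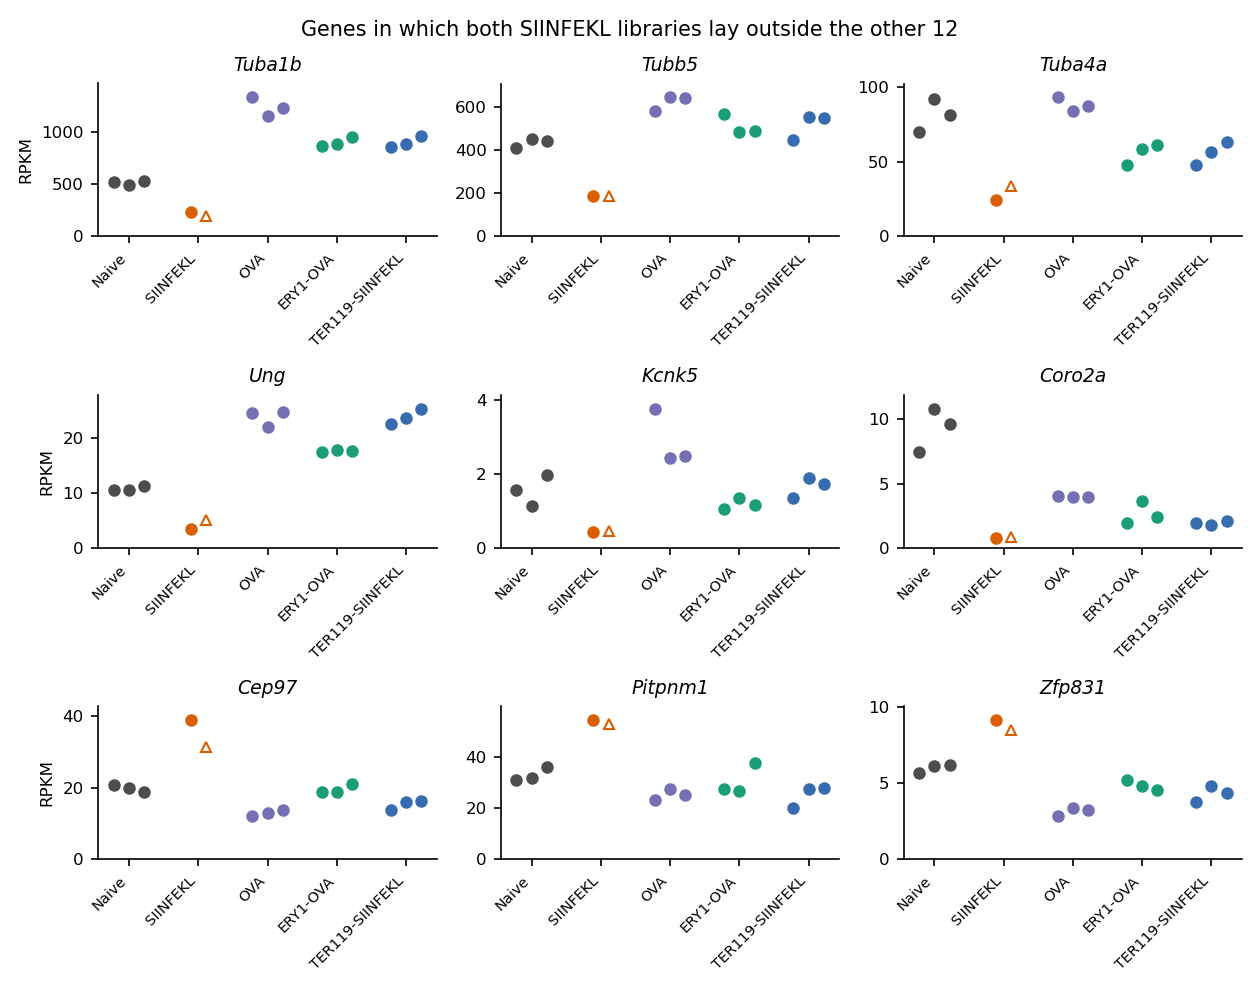
Level in RPKM of 9 genes in each of the 14 libraries by group, with SIINFEKL values outside those of the other 12. Tuba1b is at 236 and 195 RPKM with SIINFEKL and at no less than 492 elsewhere, and Pitpnm1, Cep97 and Zfp831 are highest with SIINFEKL.

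Tubulins, the subunits of microtubules, were lower in both SIINFEKL libraries. Of 14 tubulin genes tested, a list drawn up after their values were seen, 10 fell against Naive (8.34% of all genes did), none rose, and 11 were below all 12 other libraries in both SIINFEKL libraries (7.32% of all genes were). Tuba1b, an alpha-tubulin (chr15:98931425-98934565), had 525, 492 and 534 RPKM against 236 and 195 (-1.27 ± 0.13, adjusted p = 6.7e-05). The beta-tubulin Tubb5 (chr17:35833921-35838306) had 411, 451 and 441 against 186 and 188 (-1.21 ± 0.13, adjusted p = 9.6e-05), and Tuba4a had 69.8, 92.2 and 81.7 against 24.3 and 33.9 (-1.49 ± 0.17, adjusted p = 0.00014). The 2 SIINFEKL libraries were close to each other for these genes, and neither came near a Naive value. In OVA cells Tuba1b was 1160.0 to 1334 and Tubb5 579 to 644 RPKM. Tuba1a, Tuba1b and Tuba1c are near-identical in sequence, as are Tubb4b and its listed pseudogene, so the values of single members are uncertain. The gamma-tubulin Tubg1 had a difference of -0.41 ± 0.15 (adjusted p = 0.077) and the delta-tubulin Tubd1 of 0.02 ± 0.18 (adjusted p = 0.96), neither past the threshold. In the list of 19 cytoskeletal genes 4 rose (21.1%, against 7.58% of all genes) and 6 fell (31.6%, against 8.34%), 5 of the falls being tubulins and the other Coro2a. The rises included Anxa2, annexin A2, from 24.8, 24.7 and 31.6 to 229 and 67.5 (2.21 ± 0.34, adjusted p = 0.001) and Lgals1, galectin 1, from 115, 95.8 and 146 to 535 and 167 (1.35 ± 0.34, adjusted p = 0.017), both chosen after their values were seen. The 19 cytoskeletal genes gave 2 rises and 6 falls without Naive replicate 2, 1 rise and 6 falls without SIINFEKL replicate 1, and 9 rises and 6 falls without SIINFEKL replicate 2. Leave-one-out fits lost the call of Lgals1 (0.51 to 1.20) without Naive replicate 2 or SIINFEKL replicate 1. The log2 difference was 1.33 for Anxa2 without SIINFEKL replicate 1, still past the threshold.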

How the data were processed

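Poly(A) RNA of sorted OT-I T cells was sequenced from stranded libraries, per the labels' protocols. GRCm38 (mm10) is the build, and edgeR, STAR 2.4.2 and bcl2fastq 2.17.1.14 are the tools, per the submitters' processing notes, which were read here without the tools' order or roles. The authors deposited log2 RPKM values for 10106 genes in 14 libraries. How zeros were handled before the log, and any filter that set the gene list, are not given in the sources used here. Depth per library is therefore unknown, and the number of libraries limits the precision.

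Genes with a mean of at least 1 RPKM over the 14 libraries were kept (9793 tested, 313 removed). Group means of all 5 groups were fitted with limma 3.58.1 in R 4.3.3 with an intensity trend, giving 9 residual and 4.6 prior degrees of freedom, with two-sided tests and Benjamini-Hochberg adjustment over all tested genes in each comparison. On simulated libraries of the same group sizes, with 50 genes per size among 9793, the fit recovered 24%, 68% and 94% of rises of 0.5, 1 and 2 on the log2 scale and 80% of falls of 1, with 7 false calls. The simulation gave all groups the same spread per gene. In the data the pooled SD was 0.416 in the SIINFEKL group and 0.226 to 0.255 in the others. The simulated rates therefore do not give the recovery or the false calls of this comparison. Exon lengths and positions came from the GRCm38 annotation, promoters from RefSeq (GRCm38.p6), and figures from matplotlib 3.10.9.

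The members, the 32 gene lists and the rule for named genes were chosen with earlier results of these data known. The rule took the 12 largest rises and falls among called genes without overlap, up to 3 called members of each list, the 10 largest steady rises and falls, the 10 genes each way that most divided the pair, a core set, and the 8 genes each way furthest outside the other 12 libraries. Alternatives covered scaling, pseudocounts, filters, variance models, a replicate block and each library left out. A few list members enter the counts of their lists but are not reported here by name.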

Additional observations from a re-analysis of the deposited data

How the results depend on the processing

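The 1559 calls against Naive became 818 with array weights (whose fit did not fully converge), 605 when only the 5 libraries compared were fitted, 516 with a 2-fold requirement, and 363 to 2438 when single libraries were left out, lowest without SIINFEKL replicate 1 and highest without replicate 2. Against OVA the 4135 calls became 1097 with the 2-fold requirement and 3230 to 3741 without single libraries, and against TER119-SIINFEKL the 3664 calls became 2131 with only the compared groups, 941 with the 2-fold requirement and 2879 to 3332 without single libraries. The share higher against OVA went from 47.1% to 55.9% under quantile normalization, 57.2% under a correction for exon length, which was chosen after seeing the data, and 26.4% with the 2-fold requirement. Against TER119-SIINFEKL it went from 45.5% to 53.7%, 55% and 28.5%. Replicate numbers did not pair the libraries: deviations of same-numbered libraries correlated at -0.44 to 0.67 over 26 pairs, with 14 above 0.1. With the replicate number as a block the counts were 1422 against Naive, 3988 against OVA and 3579 against TER119-SIINFEKL. Of 125 named genes called and reported, 71 kept the call under every alternative in which they were tested, the 2-fold requirement aside. That requirement was not applied to single genes. A gene removed by the stricter filter was not counted as lost there. Calls lost were 48 without SIINFEKL replicate 1, 6 without replicate 2, 16, 21 and 20 without Naive replicates 1, 2 and 3, 18 with array weights and 28 with only the compared groups. The cause was not tested, beyond fewer libraries in the fits that leave some out.

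The sign turned in 23 values, none of a called gene, when a library was left out or with the replicate block. Without single libraries the log2 differences of these genes ran from -0.86 to 0.17 for Cd69, -1.08 to 0.96 for Eomes, -0.78 to 2.72 for Fam64a, -2.69 to 0.045 for Fos, -1.85 to 1.63 for Fosb, -2.01 to 0.093 for Gm14446, -3.34 to 1.14 for Igj, -1.46 to 0.61 for Kcnc1, -0.37 to 3.23 for Mxd3, -0.057 to 0.43 for Nr4a1, -0.57 to 5.05 for Nrgn, -0.48 to 1.49 for Nt5e, -1.34 to 0.85 for Prss12, -0.40 to 0.31 for Tbx21, -0.012 to 0.32 for Tcf7, -2.09 to 0.043 for Tlr12 and -0.69 to 2.87 for Zbtb7b. With the replicate block they were 0.063 for Cd69 and 0.81 for Fosb.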
